A study of Homo sapiens with 2 samples.

Results

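The Toll-like receptor genes TLR1 to TLR6, the co-receptor gene CD14 and the adaptor genes MYD88, TICAM1 and TIRAP were examined in a human corneal epithelial cell line grown in either of 2 media. The 10 genes were chosen by symbol, and all 10 were found among the 26506 genes of the deposited tables. The cells were an established line of the corneal surface epithelium (ATCC CRL-11515). They were grown for 72 hours either in keratinocyte serum-free medium (KSFM) or in DMEM/F12 with 10% serum from fetal cattle, calcium chloride at 1 mM, antimicrobials and the growth factor EGF at 10 ng/mL, called the special medium. RNA from 3 cultures was pooled into 1 library per medium, so no spread between cultures can be estimated and no p-value is given. The labels name no mutation, transgene or added microbial ligand in either group. All values come from a single line, and the special medium differs from KSFM in its base and in more than 1 additive, so the parts of the medium cannot be told apart.

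Toll-like receptors are single-pass membrane proteins that bind microbial molecules and signal through a cytoplasmic TIR domain. TLR1, TLR2, TLR4, TLR5 and TLR6 act mainly at the cell surface, on bacterial lipoproteins, lipopolysaccharide or flagellin, whereas TLR3 binds double-stranded RNA in endosomes. CD14 is a membrane-anchored protein that hands lipopolysaccharide to TLR4 and its partner LY96, and also serves other receptors. Signals pass through TIR-domain adaptors: MYD88 with its bridging partner TIRAP feeds the IRAK kinases and TRAF6, and TICAM1, also called TRIF, serves TLR3 and TLR4 and feeds the kinases TBK1 and IKBKE. The corneal epithelium is the outer barrier of the eye, where these receptors are known as sensors of bacteria and viruses.

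The KSFM library held 21604652 counts and that of the special medium 16900472. Levels are given as estimated counts, as CPM (counts scaled to library size) and as TPM (the deposited scale that is per transcript length and serves to compare genes). Folds are special medium over KSFM on the CPM scale unless said otherwise. A range in parentheses is an exact 95% interval, which covers counting error only, because each medium has 1 library. Reads counted with no molecular identifier may repeat 1 molecule, so the intervals may be too narrow. Genes at 1 CPM or more in at least 1 library were tested, and those with a difference of 2-fold or more whose interval left out equality were called higher or lower. The labelled cell type was checked against its markers. Of 9 epithelial markers 7 were at 1 CPM or more, with KRT18 at 1128 and 2503 TPM and EPCAM at 301 and 449 TPM in KSFM and special medium, while the corneal keratin KRT12 had 0 counts in both libraries and KRT3 had 0 and 1. The keratin genes KRT8 and KRT19 were called higher in the special medium, at 2.78-fold (2.71 to 2.86) and 3.43-fold (3.29 to 3.58). CDH1 and KRT5 had ratios below equality and were not called, at 0.799-fold (0.775 to 0.823) and 0.660-fold (0.609 to 0.715). PAX6 was at 1.89 TPM in KSFM and 3.66 in the special medium. KRT14 (4 and 10 counts) and TP63 (5 and 13 counts) were below the filter.

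Of the 10 genes, 6 were called higher in the special medium, 3 were neither and TLR2 was below the filter. The called genes were CD14, TLR1, MYD88, TLR3, TLR6 and TLR4, and 0 were called lower. Among all 13632 genes tested, 9.86% were called higher and 6.77% lower. The 10 genes were chosen with earlier results of these data known, so these shares are descriptive and test nothing. CD14 and TLR1 passed the filter only through the special medium, where they were high. Of the 7 genes at 1 CPM or more in KSFM already, 4 were called higher, against 7.55% of the 13144 genes of the table at that level. The median log2 ratio of the 9 tested genes was 1.23, beside 0.00 over all tested genes, with a range from -0.63 in TIRAP to 5.31 in CD14. That median includes CD14 and TLR1. Of the 7 genes at 1 CPM or more in KSFM, TLR4 had the middle log2 ratio, 1.09, beside a median of -0.03 over all genes at that level.

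**Figure D1:**
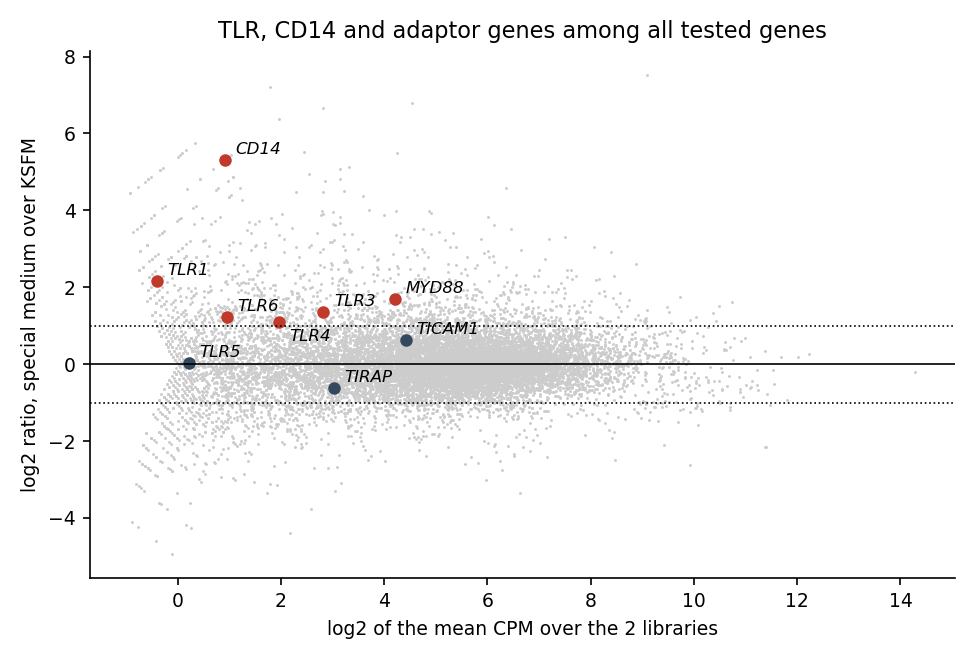
Each grey point is a tested gene, with the log2 of its mean CPM over both libraries on the x axis and its log2 ratio of special medium over KSFM on the y axis; 47 tested genes with 0 counts in one library are not drawn. Red points are the 6 genes called higher, dark points TLR5, TICAM1 and TIRAP, and dotted lines mark 2-fold; the 6 red points lie above the upper dotted line, CD14 highest at 5.31.

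In bulk RNA a larger share of cells with a transcript and more of it per cell cannot be told apart, and this holds for each value below. Differences between the media are described from 1 library each, and variation between cultures may be larger than the counting intervals.

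TLR3, the endosomal receptor for double-stranded RNA, had the highest TPM of the receptors in both media. It had 86 counts in KSFM against 172 in the special medium, 3.99 and 10.2 CPM, and 2.49 and 7.12 TPM. The 95% counting intervals of the TPM values, 1.99 to 3.08 and 6.10 to 8.27, did not overlap. The ratio was 2.55-fold (1.96 to 3.34). TLR3 (ENSG00000164342) spans chromosome 4 from 186069152 to 186088069 on the plus strand of GRCh38, in GENCODE release 29.

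TLR4, the lipopolysaccharide receptor, was at 54 counts in KSFM against 90 in the special medium, 2.50 and 5.32 CPM, and 0.82 and 1.95 TPM. The special medium library was the higher of the pair and the TPM intervals did not overlap (0.616 to 1.07 and 1.57 to 2.40). The ratio of 2.13-fold (1.5 to 3.04) lay just past the 2-fold threshold. On the TPM scale with a pseudocount of 1, which shrinks the ratios of scarce genes, its log2 ratio was 0.70 and it was not called. TLR4 (ENSG00000136869) lies on chromosome 9 from 117704175 to 117724730, and a second gene model on the same strand, AL160272.2, covers 4.2% of its exonic bases in GENCODE release 29. That model has no row among the genes used here, and assignment of those reads was not tested.

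TLR5, the flagellin receptor, was the tested receptor that was not called. It had 25 counts in KSFM against 20 in the special medium, 1.16 and 1.18 CPM, and 0.51 and 0.58 TPM, so the libraries were level within counting error. The ratio of 1.02-fold had an interval from 0.537 to 1.91, which leaves out a 2-fold difference in either direction for this pair of libraries. TLR5 (ENSG00000187554) spans chromosome 1 from 223109406 to 223143282 on the minus strand.

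TLR2, the partner that TLR1 and TLR6 pair with to bind bacterial lipoproteins, was at the limit of detection. It had 1 count in KSFM against 0 in the special medium, where a count of 0 allows up to 0.177 CPM (3 counts). Both libraries were under the floor of 3 counts, and no fold is given. TLR2 (ENSG00000137462) lies on chromosome 4 from 153684070 to 153705702.

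TLR1 and TLR6 overlap on the minus strand of chromosome 4, TLR1 (ENSG00000174125) from 38790677 to 38856817 and TLR6 (ENSG00000174130) from 38823715 to 38856817. Their exons share 57 bases on the same strand. TLR1 had 6 counts in KSFM against 21 in the special medium, 0.278 and 1.24 CPM, and 0.19 and 0.95 TPM. Its ratio was 4.46-fold, with a wide interval (1.74 to 13.5) from the few counts in KSFM. TLR6 had 25 and 46 counts, 1.16 and 2.72 CPM, and 0.37 and 0.96 TPM, a ratio of 2.35-fold (1.41 to 3.99). Both were higher in the special medium, and their folds did not differ beyond counting error. The TLR1 fold divided by the TLR6 fold was 1.89 (0.629 to 6.49). On the TPM scale with a pseudocount of 1 the log2 ratios were 0.71 for TLR1 and 0.52 for TLR6, and neither was called.

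The split of reads between TLR1 and TLR6 is uncertain, because the genes share coding sequence and overlap in their exons. The deposited counts were fractional in the special medium for both (21.49 and 45.82), as estimation from shared reads gives. The longest transcripts of the pair in GENCODE release 29 hold an identical run of 218 bases within 1 coding exon of each gene. The run is shown with 10 bases on each side, 5′ to 3′ on the gene strand, with the bases that differ between the genes in capitals. In GRCh38 the TLR1 stretch is chr4:38797226-38797463 and the TLR6 stretch is chr4:38827853-38828090.
TLR1: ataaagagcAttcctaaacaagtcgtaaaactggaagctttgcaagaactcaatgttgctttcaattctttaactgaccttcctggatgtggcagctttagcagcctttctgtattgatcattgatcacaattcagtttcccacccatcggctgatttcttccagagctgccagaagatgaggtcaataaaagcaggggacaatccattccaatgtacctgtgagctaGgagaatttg
TLR6: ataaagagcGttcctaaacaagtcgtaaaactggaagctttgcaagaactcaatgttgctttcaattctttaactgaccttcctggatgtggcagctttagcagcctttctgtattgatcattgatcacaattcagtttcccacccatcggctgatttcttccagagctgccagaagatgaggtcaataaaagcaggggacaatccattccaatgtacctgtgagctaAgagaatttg
Of the 100-base windows of the longest TLR1 transcript, 4.33% also occur in TLR6 transcripts, and of those of TLR6 2.06% occur in TLR1 transcripts. For TLR2, TLR3, TLR5, CD14, MYD88, TICAM1 and TIRAP the share of such windows found in another gene was 0. For TLR4 it was 3.23%, all in AL160272.2.

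The 6 receptor genes summed to 4.41 TPM in KSFM and 11.6 TPM in the special medium, 2.62 times as much on the TPM scale. TLR3 made up 56.5% of that sum in KSFM and 61.6% in the special medium. TLR5 made up 11.6% and 5.02%, and TLR4 18.6% and 16.9%. To compare folds within the family without any scaling of the libraries, the ratio of 2 genes' folds was taken with its exact conditional interval for 12 pairs, chosen after the values were seen and not adjusted for their number. The TLR3 fold was 2.49 times the TLR5 fold (1.25 to 5.02). The TLR1 fold was 4.28 times the TLR5 fold (1.34 to 15.6). The TLR4 and TLR6 folds were 2.07 times (1.001 to 4.35) and 2.28 times (1.001 to 5.30) the TLR5 fold, with the lower bounds at equality. The TLR3 and TLR4 folds did not differ beyond counting error, at a ratio of 1.20 (0.765 to 1.87).

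**Figure D2:**
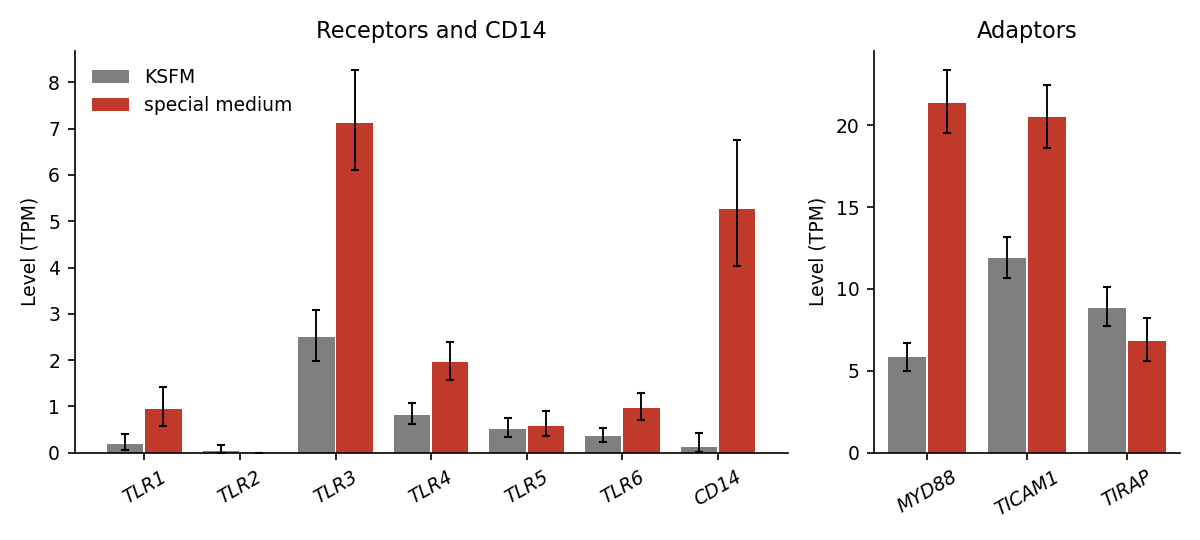
Bars give the deposited TPM of each gene in KSFM (grey) and in the special medium (red), from 1 library each, and error bars give exact 95% counting intervals; the y axes of the receptor and adaptor panels differ. TLR3 is the highest receptor bar in both media, CD14 goes from 0.12 to 5.27 TPM, and among the adaptors the MYD88 bars stand furthest apart.

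CD14 showed the widest difference of the 10 genes. It had 2 counts in KSFM against 62 in the special medium, 0.0927 and 3.66 CPM, and 0.12 and 5.27 TPM. In KSFM it ranked 9th of the 10 genes by TPM and its interval (0.0145 to 0.433) overlapped those of TLR1, TLR2, TLR5 and TLR6, and in the special medium it ranked 5th, with an interval (4.04 to 6.76) that overlapped those of TIRAP and TLR3 and lay above that of TLR4. The CD14 fold was 39.5 (10.5 to 334), and it was 18.4 times the TLR4 fold (4.56 to 162). Both ratios rest on 2 counts in KSFM, under the floor of 3 counts, and are poorly bounded. CD14 (ENSG00000170458) spans chromosome 5 from 140631728 to 140633701 on the minus strand.

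Since CD14 is widely used as a monocyte marker, 15 monocyte and macrophage markers were read beside it. CD163, FCGR1A, FCGR3A and SPI1 had 0 counts in both libraries. The leukocyte marker PTPRC had 1 count in KSFM against 0 in the special medium, and TYROBP and AIF1 each had 0 and 1. The summed level of the list was 68.4 TPM in KSFM and 77.0 TPM in the special medium, of which the lysosomal gene CD68, which is not limited to leukocytes, made up 59.5 and 70.9 TPM. The 4 markers at 1 CPM or more were CD68, ITGAX (194 and 105 counts), CSF1R (78 and 45) and LYZ (48 and 11). Of these 0 were called higher and LYZ was called lower. ITGAX and CSF1R were at 3.59 and 1.72 TPM in KSFM, above CD14 there, and had ratios of 0.690-fold (0.539 to 0.880) and 0.736-fold (0.498 to 1.08). ITGAM, with 12 and 5 counts, was below the filter.

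Markers of 2 further cell types were read beside CD14. Of 4 endothelial markers the vascular cadherin gene CDH5 was the 1 at 1 CPM or more, and it had 3 counts in KSFM against 236 in the special medium, a called difference of 100-fold (33.9 to 490). PECAM1 had 2 and 15 counts, VWF 6 and 2, and KDR 10 in each, and the summed level of the 4 was 0.30 and 7.74 TPM. CDH5 thus moved the same way as CD14, and the part of endothelial transcripts in the CD14 result was not tested. The 5 fibroblast markers summed to 2.56 and 2.99 TPM, and 0 were called.

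The partners of TLR4 and CD14 in lipopolysaccharide binding were scarce. LY96, also called MD-2, had 1 count in each library, the serum lipopolysaccharide-binding protein gene LBP had 3 in KSFM and 2 in the special medium, and the lipid receptor gene CD36 had 0 and 2. CD180 and LY86, which form a related receptor complex, had 0 counts in both. All 5 of these genes were below 1 CPM in both media. The other receptors TLR7 to TLR10 were likewise below the filter, with TLR7 at 19 and 8 counts, TLR10 at 10 and 2, TLR9 at 4 and 3 and TLR8 at 0 in both.

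MYD88, the adaptor shared by most Toll-like receptors and by the interleukin-1 receptors, had 188 counts in KSFM against 477 in the special medium. These were 8.71 and 28.2 CPM, and 5.82 and 21.4 TPM. The TPM intervals (5.02 to 6.71 and 19.5 to 23.4) lay far apart. The ratio was 3.24-fold (2.73 to 3.85), and with CD14 it was the gene among the 10 whose interval lay wholly beyond 2-fold, against 6.14% of all tested genes with such an interval upward. CD14 passed the filter only through the special medium. MYD88 (ENSG00000172936) spans chromosome 3 from 38138478 to 38143022.

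TICAM1, the adaptor of TLR3 and of internalised TLR4, had 366 counts in KSFM against 440 in the special medium, 17.0 and 26.0 CPM, and 11.9 and 20.5 TPM. Its level was higher in the special medium beyond counting error, but the ratio of 1.53-fold (1.33 to 1.77) was under the 2-fold threshold. TICAM1 (ENSG00000127666) lies on chromosome 19 from 4815932 to 4831704.

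TIRAP, which brings MYD88 to TLR2 and TLR4 at the membrane, was the tested gene of the set with a ratio below equality. It had 213 counts in KSFM against 108 in the special medium, 9.87 and 6.38 CPM, and 8.86 and 6.82 TPM. The level in KSFM was 1.55 times that in the special medium (1.22 to 1.97), under the 2-fold threshold, and the TPM intervals of the libraries overlapped (7.71 to 10.1 and 5.59 to 8.23). TIRAP (ENSG00000150455) spans chromosome 11 from 126283065 to 126298845. The antisense gene models, AP001318.1 and AP001318.2, lie over 12.5% and 10.0% of its exonic bases. The library kit keeps strand, but the strand setting of the counting is not given in the sources used here, so their part in the TIRAP counts was not tested.

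The order of the adaptors by TPM differed between the media. In KSFM the order was TICAM1, TIRAP and MYD88, and each interval lay apart from the next. In the special medium MYD88 and TICAM1 could not be separated (19.5 to 23.4 and 18.6 to 22.5), and TIRAP lay below both. MYD88 TPM was 0.490 of TICAM1 TPM in KSFM and 1.04 of it in the special medium, and 0.657 and 3.13 of TIRAP TPM. The MYD88 fold was 2.11 times the TICAM1 fold (1.69 to 2.64) and 4.99 times the TIRAP fold (3.72 to 6.74), and the TICAM1 fold was 2.37 times the TIRAP fold (1.80 to 3.14), so all 3 pairs of adaptors differed beyond counting error. The MYD88 and TLR3 folds did not, at a ratio of 1.27 (0.918 to 1.75). The MYD88 fold was 1.52 times the TLR4 fold (1.02 to 2.25).

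**Figure D3:**
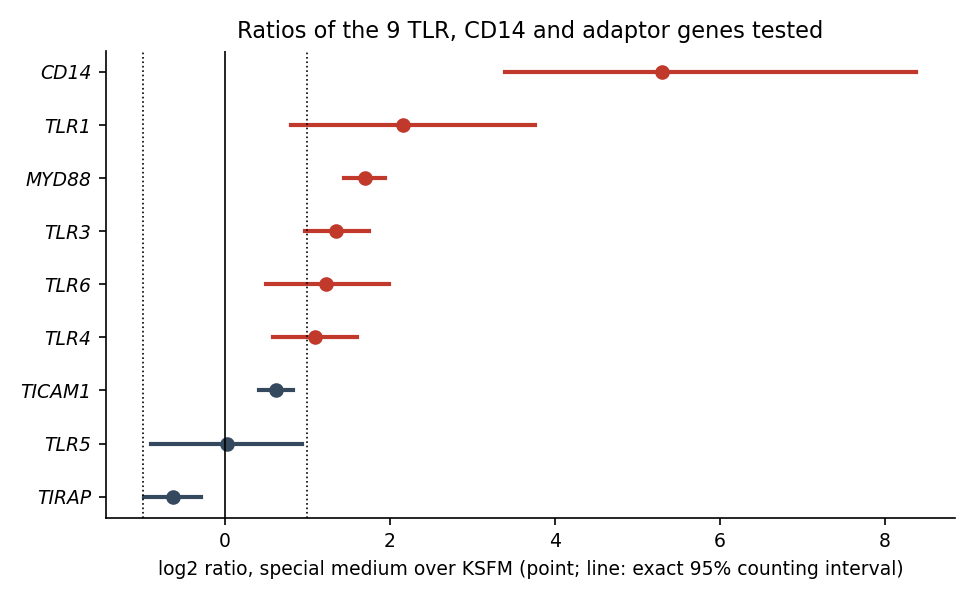
Points give the log2 ratio (special medium over KSFM) for the 9 genes that passed the filter, and lines give exact 95% counting intervals; the solid vertical line marks equality and dotted lines 2-fold. Red marks the 6 genes called higher; the CD14 and MYD88 lines lie wholly beyond 2-fold, the TLR5 line spans equality and the TIRAP line lies below it.

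The calls depended on the pseudocount, the filter and the fold rule more than on library scaling. Calls on TPM used the 2-fold threshold alone, with no interval. The same 6 genes were called under total count scaling (beside 9.91% of all genes tested called higher), DESeq2 size factors (9.79%), upper quartile scaling (9.5%), no CPM filter (8.79%), TPM with a pseudocount of 0.1 (12.3%) and removal of a trend on length and GC content (10.1%). On TPM with a pseudocount of 1 the called genes were TLR3, CD14 and MYD88, beside 9.29% of all genes tested, or 6.81% after centring. A filter of 10 CPM left TLR3, MYD88 and TICAM1 in the test and called TLR3 and MYD88 (beside 7.57%). TLR3 and MYD88 reached 10 CPM only in the special medium. A 4-fold rule called TLR1 and CD14 (beside 2.99%), which passed the filter of 1 CPM only through the special medium. The calls under these rules thus rest on the filter as well as on the fold.

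**Figure D4:**
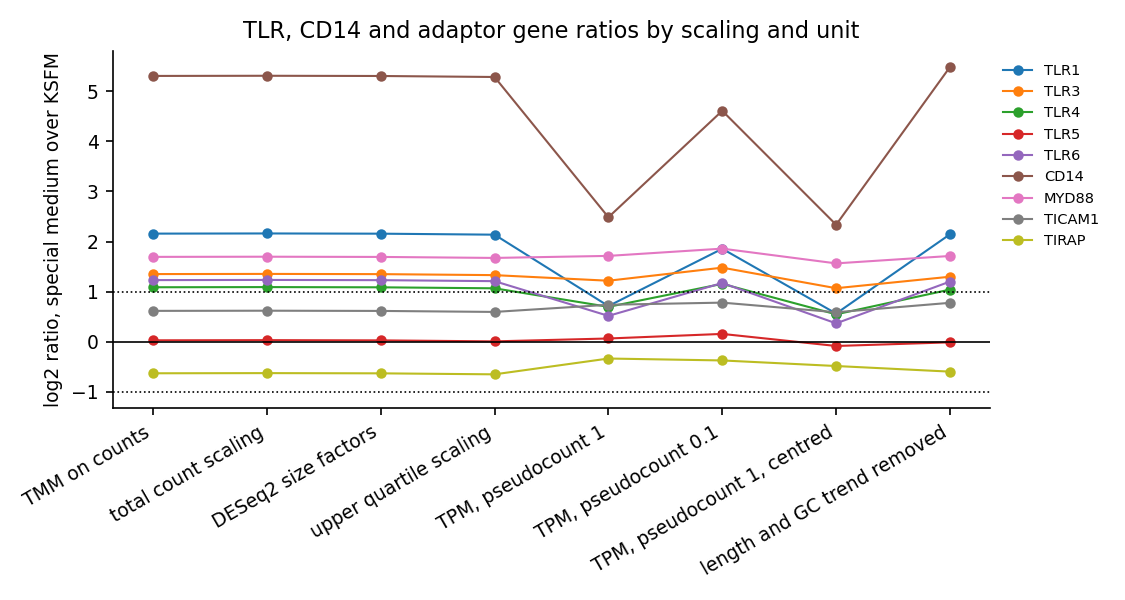
Lines join the log2 ratio (special medium over KSFM) (y axis) of each of the 9 tested genes across the library scalings, TPM pseudocounts and the trend removal (x axis), with dotted lines at 2-fold. CD14, TLR1, TLR4 and TLR6 drop on TPM with a pseudocount of 1, CD14 to 2.48 and TLR1 to 0.71, while MYD88 stays between 1.56 and 1.86.

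Promoter sequence is shown for TLR3, MYD88 and CD14, which were called higher with the widest differences among genes with a window, and for TICAM1, which was not called, to show which motif letters lie near their starts. RefSeq windows from 250 bases before to 50 bases after the start (GRCh38.p14) were matched for 8 of the 10 genes, all but TLR1 and TIRAP. The CD14 window lies wholly within the GENCODE span of CD14 given above, and most of the MYD88 window lies within that of MYD88. The RefSeq and GENCODE starts of CD14 and MYD88 thus differ, and other starts were not searched. Motifs searched on both strands were the core of the interferon-stimulated response element (GAAANNGAAA), a kappaB core (GGGNNTTTCC), the AP-1 site (TGANTCA) and the gamma-activated sequence (TTCNNNGAA). The windows of TLR3 (chr4:186068906-186069205, plus strand), MYD88 (chr3:38138411-38138710, plus strand), CD14 (chr5:140633126-140633425, minus strand) and TICAM1 (chr19:4831663-4831962, minus strand) follow, 5′ to 3′ on the gene strand, with all matches in capitals.
TLR3: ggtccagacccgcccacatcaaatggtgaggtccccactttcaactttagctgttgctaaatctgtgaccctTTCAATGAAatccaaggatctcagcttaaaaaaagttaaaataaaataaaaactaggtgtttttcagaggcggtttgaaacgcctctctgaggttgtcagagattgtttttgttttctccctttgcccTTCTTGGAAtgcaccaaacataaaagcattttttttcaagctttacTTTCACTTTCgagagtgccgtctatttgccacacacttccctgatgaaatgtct
MYD88: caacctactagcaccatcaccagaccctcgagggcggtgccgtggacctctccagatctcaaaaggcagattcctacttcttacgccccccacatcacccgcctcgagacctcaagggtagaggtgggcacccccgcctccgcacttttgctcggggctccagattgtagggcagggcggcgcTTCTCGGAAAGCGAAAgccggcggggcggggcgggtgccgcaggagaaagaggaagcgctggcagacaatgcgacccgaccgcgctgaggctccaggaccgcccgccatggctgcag
CD14: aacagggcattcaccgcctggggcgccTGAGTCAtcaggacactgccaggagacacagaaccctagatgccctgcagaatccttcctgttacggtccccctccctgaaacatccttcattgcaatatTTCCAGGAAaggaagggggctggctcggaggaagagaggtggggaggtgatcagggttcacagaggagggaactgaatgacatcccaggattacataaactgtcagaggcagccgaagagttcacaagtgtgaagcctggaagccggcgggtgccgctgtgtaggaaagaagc
TICAM1: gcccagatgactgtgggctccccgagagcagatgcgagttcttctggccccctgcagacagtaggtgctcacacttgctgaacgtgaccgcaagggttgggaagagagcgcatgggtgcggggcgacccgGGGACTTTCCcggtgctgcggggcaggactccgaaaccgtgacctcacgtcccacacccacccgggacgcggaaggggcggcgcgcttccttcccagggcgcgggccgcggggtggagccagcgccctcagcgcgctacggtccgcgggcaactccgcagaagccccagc
The interferon-stimulated response core was in the TLR3 window, as TTTCACTTTC on the reverse strand, and in the MYD88 window, as GAAAGCGAAA, and in 3.57% of all 35116 promoter windows of this length. In MYD88 it overlaps a gamma-activated sequence (TTCTCGGAA). TLR3 held a pair of gamma-activated sequences and CD14 held 1, a motif in 7.66% of windows. CD14 also held an AP-1 site (TGAGTCA; 7.71% of windows), and TICAM1 a kappaB core (GGGACTTTCC; 1.91% of windows). The windows of TLR2, TLR4, TLR5 and TLR6 held 0 of the 4 motifs. A match is a string of letters and does not show that a factor binds there.

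The other genes of the pathway were read from lists by role. These lists too were chosen with earlier results of these data known, so their counts are descriptive. Of 65 listed genes 49 were at 1 CPM or more, and 14 of these were called higher and 1 lower, beside the 9.86% and 6.77% of all tested genes. Their median log2 ratio was 0.38. Without TICAM2, whose call is uncertain for the reason given below, 13 were called higher. Of the 47 at 1 CPM or more in KSFM already, 12 were called higher and 1 lower (median 0.34), beside 7.55% of all genes at that level called higher. Among the 4 receptor chaperones and trafficking genes 0 were called (median -0.50). HSP90B1, an endoplasmic reticulum chaperone that folds Toll-like receptors, was at 2538 CPM in KSFM and 1394 in the special medium, and TMED7, a cargo receptor, at 134 and 75.2 CPM.

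Among 3 further adaptor genes PIK3AP1, which links receptors to PI3-kinase, had 29 and 53 counts and was called higher, at 2.33-fold (1.46 to 3.8). TICAM2, which couples TLR4 to TICAM1, was called higher with 0 counts in KSFM against 65 in the special medium. It was at least 21.8-fold higher by the exact 95% bound, and with the zero set to 3 counts the approximate fold was 27.6. The TICAM2 call rests on how reads were split with TMED7-TICAM2, a readthrough gene that contains it, which had 538 and 192 counts. Summed over both symbols, the level was 0.609-fold (0.523 to 0.708) in the special medium. The readthrough joins TMED7 to TICAM2, and TMED7 itself was 0.560-fold (0.524 to 0.599). The sum therefore does not give the direction of TICAM2 alone. SARM1, an inhibitory TIR protein, was not called, on 149 and 69 counts.

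In the MYD88 arm 1 of 13 tested genes was called higher and 1 lower (median 0.07), beside 9.86% and 6.77% of all genes tested. These counts are near those shares, so the genes named here are single genes and not a result about the arm. The kinase gene IRAK2 had 34 counts in KSFM against 241 in the special medium and was 9.04-fold higher (6.29 to 13.4). IRAK3, known as a restraint on this arm, had 103 and 19 counts, a ratio of 0.235 (0.136 to 0.386). IRAK1, IRAK4, TRAF6, MAP3K7 and 6 of the other genes tested lay within 2-fold, and TAB3, at 1.999-fold, lay at the threshold. IRAK1, at 470 and 323 CPM, was the most counted of the list. Of the 3 IKK complex genes 0 were called (median 0.18), with CHUK at 98.6 and 71.9 CPM and IKBKG at 31.9 and 36.1 CPM.

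In the list for the TICAM1 arm, which includes IRF5, 1 of 8 tested genes was called higher (median 0.50). This is near the 9.86% of all genes tested. IKBKE, a kinase that acts beside TBK1 on interferon regulatory factors, had 72 counts in KSFM against 582 in the special medium and was 10.3-fold higher (8.06 to 13.4). TBK1 itself was at 37.5 and 59.2 CPM and IRF3 at 60.0 and 75.7 CPM, and neither was called. IRF7 is listed at 0 in both libraries.

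Of 8 tested genes that restrain the pathway, 2 were called higher (median -0.19), beside 9.86% of all genes tested. The ubiquitin-editing enzyme gene TNFAIP3, also called A20, had 260 and 796 counts, a ratio of 3.90-fold (3.39 to 4.51), and its binding partner TNIP1 2.53-fold higher (2.41 to 2.65), from 119 to 300 CPM. Among genes that receptor signalling is known to induce, 8 of 10 tested were called higher (median 1.94), beside 9.86% of all genes tested. CXCL10 passed the filter only through the special medium, and of the 9 genes at 1 CPM or more in KSFM 7 were called higher (median 1.82), beside 7.55% of all genes at that level. These included CXCL8, with 80 and 959 counts, CXCL2, with 150 and 651 counts, and IL1B, with 158 and 857 counts. CXCL10, at 0 and 48 counts, was at least 16.0-fold higher by the exact 95% bound. With the zero set to 3 counts the approximate fold was 20.4. IFNB1, the interferon gene downstream of TICAM1, had 0 and 1 counts and TNF 0 and 10. Other receptors also induce these genes, and which signal reached them was not tested.

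**Figure D5:**
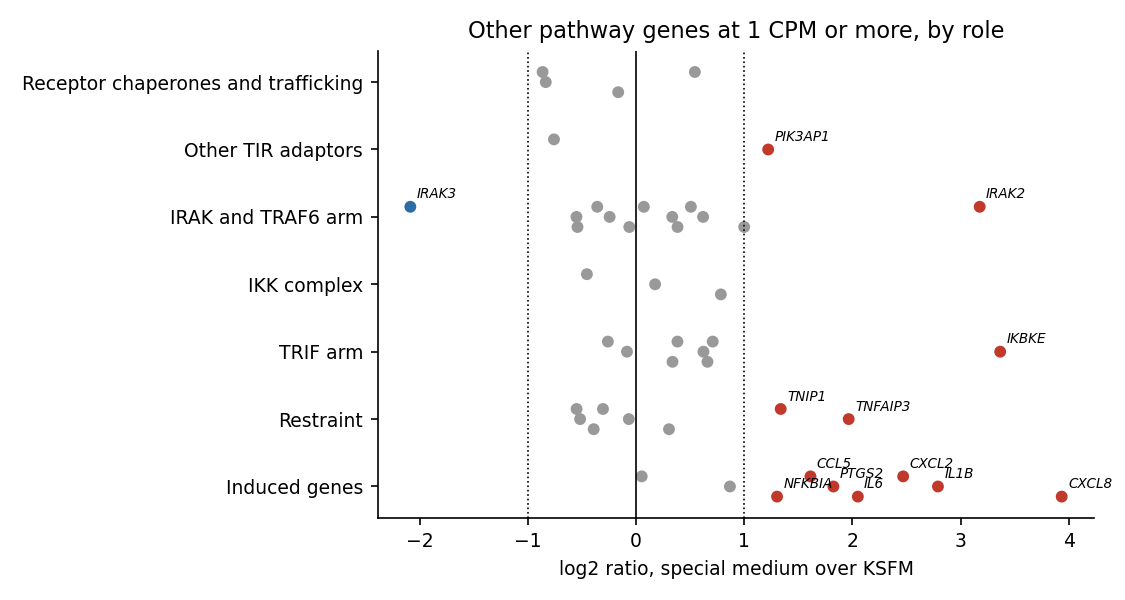
Each point is a pathway gene at 1 CPM or more outside the set of 10, with its log2 ratio of special medium over KSFM on the x axis and its role on the y axis, spread vertically for legibility; red is called higher, blue lower, grey neither, and TICAM2 and CXCL10, with 0 counts in KSFM, are not drawn. IRAK2, IKBKE, TNFAIP3 and CXCL8 lie to the right of the dotted 2-fold line and IRAK3 to the left, while most kinases lie between the lines.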

How the data were processed

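Poly(A) RNA was sequenced from 1 pooled library per medium, made with a stranded kit per the labels' protocols. Per the submitters' processing notes, RSEM, HISAT2 2.1.0, fastp 0.20.0 and FastQC 0.11.9 were used with GRCh38. The sources used here do not give the order of steps, strand setting, annotation or RSEM version. In the deposited tables, the authors gave estimated counts, fractional in 11.3% and 8.05% of genes, and TPM values.

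Estimated counts were rounded and scaled by edgeR 4.0.16 TMM factors (0.999 and 1.00). Ratios received Clopper-Pearson intervals conditional on the sum of both counts, reaching 0.415 to either side on the log2 scale at 100 counts in each library. Ratios of folds are conditional odds ratios. The calling rule was tested on simulated counts with counting error only, so variation between cultures and repeated reads were not covered. Differences were simulated only in the better counted genes. The genes examined, the lists and the rule for named genes were chosen with earlier results of these data known. All 10 genes are named, and per role the called genes (at most 4, by ratio) or the 2 most counted; others were named after their values were seen. Alternatives were upper quartile, total count and DESeq2 1.42.0 scaling, TPM (pseudocounts of 1 and 0.1), other filters and fold rules, and, added after the data were seen, centred TPM, removal of a length and GC trend over 11831 genes, a filter of 1 CPM in KSFM and the lists without TICAM2. Software was Python 3.11.15 with pandas 2.3.3, scipy 1.17.1, matplotlib 3.10.9 and numpy 2.4.6, and R 4.3.3. Annotation was GENCODE release 29, and promoters came from RefSeq.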

Additional observations from a re-analysis of the deposited data

How the results depend on the processing

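The 6 calls among the 10 genes were the same under total count, DESeq2 and upper quartile scaling, TPM with a pseudocount of 0.1, no filter, and removal of the length and GC trend. With a pseudocount of 1, with or without centring, 3 genes were called higher (TLR3, CD14 and MYD88). A filter of 1 CPM in KSFM left 4 called. A filter of 10 CPM left 3 genes tested and 2 called (TLR3 and MYD88), a 4-fold rule called 2 (TLR1 and CD14), and an interval wholly beyond 2-fold called 2 (CD14 and MYD88). TLR1 and CD14 passed the filter of 1 CPM, and TLR3 and MYD88 that of 10 CPM, only through the special medium. The log2 ratio of TLR1 was 0.71 and that of CD14 2.48 with a pseudocount of 1. After centring these were 0.56 and 2.34, with 0.55 for TLR4 and 0.37 for TLR6. The ratio of TLR5, never called, was -0.08 after centring and -0.01 after removal of the trend.

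The TPM scale shifted the median log2 ratio of all tested genes by 0.15 with a pseudocount of 1 and 0.16 with 0.1. Higher genes made up 59.3% of calls on counts, 78.4% and 73.4% on TPM, where calls used no interval. Over all genes, against 1344 higher and 923 lower, 349 were lower with a pseudocount of 1 and 605 with 0.1. Centring gave 536 lower. A filter of 10 CPM gave 788 higher and 446 lower, the 4-fold rule 408 and 162, and the interval beyond 2-fold 837 and 395. Of the pathway lists, the 4-fold rule called 8 higher and leaving out TICAM2 13, against 14. The 1 lower gene, IRAK3, was not called (0 lower) with a pseudocount of 1, after centring or at 10 CPM. The cause of these changes was not tested, beyond fewer genes passing a stricter rule. No paired analysis was possible because each medium has 1 library. Depth limits TLR1, TLR2, TLR5, TLR6 and CD14 most, each on fewer than 30 counts in KSFM.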

Other observations

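IRF7, an interferon-induced transcription factor gene of the TICAM1 arm, is listed at 0 in both libraries, and its row carries several Ensembl identifiers. The rows of KRT12, TNF, PTPRC and AIF1 also carry several identifiers. Of 1175 such rows 322 (27.4%) are at 0 in both libraries, beside 27.4% of the 20780 rows with 1 identifier.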
